A study of Solenopsis invicta with 64 samples.

Results

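LOC105200757 is the vitellogenin receptor gene (synonyms VgR and SiVgR) of Solenopsis invicta, the red imported fire ant, and was followed across tissues, social forms, supergene genotypes and single animals. It was taken by its symbol, 1 gene of the 15710 listed in each count file, and it is listed in all 64 RNA sequencing libraries. The libraries come from the ovary and the brain of 32 gynes, which are winged queens that have not mated. In each tissue 24 libraries are from polygyne gynes, 8 with the genotype Sb/Sb, 8 with SB/Sb and 8 with SB/SB, and 8 are from monogyne gynes, whose genotype is SB/SB. All 4 groups were caught in the field on flight days, are labelled reproductively mature and had no treatment. A monogyne colony is headed by 1 laying queen and a polygyne colony by several. The letters SB and Sb name the variants of a supergene, a stretch of linked genes on chromosome 16 that passes on as a unit, whereas the vitellogenin receptor gene lies on chromosome 2 of the assembly UNIL_Sinv_3.0. The ovary of the polygyne SB/SB animal 104D was left out, with 73573 counts against a median of 17.3 M over the 32 ovaries. The gene had 0 counts there, which at that depth allows up to 40.8 counts per M of the library (CPM).

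In insects, yolk is built from vitellogenin, a lipoprotein made mainly in the fat body and released into the blood. The vitellogenin receptor sits on the surface of the growing oocyte and brings vitellogenin in by endocytosis. It belongs to the low-density lipoprotein receptor family, its counterpart in Drosophila is the gene yolkless, and in fire ant queens silencing it is known to interfere with egg formation. Gynes leave their nest with developing ovaries and lay their eggs after mating.

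Total counts were 10.1 to 22.6 M in the 31 ovaries and 9.46 to 26.9 M in the 32 brains. The receptor had 212 to 14415 counts in each ovary and 0 to 366 in each brain. Levels are given as CPM scaled with TMM factors within a tissue. Markers of germ line, follicle cells, fat body, neurons, glia and muscle were looked for by symbol and synonym and matched 0 genes, so the tissue labels were not checked against them. In the brain, 3 animals stood apart on the leading principal component of the other genes, which held 28.8% of the variance. Their scores were -122.1 for 16C, -120.8 for 1E and -79.6 for 16D, and the next lowest was -51.1 for 5A. Comparisons of levels between groups and between tissues are also given without these animals.

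The ovaries of polygyne gynes spanned a wider range of vitellogenin receptor levels than those of monogyne gynes. In polygyne Sb/Sb ovaries the level was 14.2 CPM in 19G, 47.6 in 107G, 78.0 in 30G, 82.1 in 16G, 107 in 20I, 176 in 5G, 220 in 15G and 660 in 104G. In polygyne SB/Sb ovaries it was 23.4 CPM in 15A, 60.0 in 107A, 61.3 in 20A, 70.8 in 19A, 85.8 in 5A, 111 in 30A, 251 in 104A and 552 in 16C. Each of these 2 groups had ovaries on both sides of the monogyne range. In the 7 polygyne SB/SB ovaries it was 53.8 CPM in 107E, 60.0 in 30E, 60.8 in 20D, 62.8 in 19D, 302 in 15D, 543 in 16D and 624 in 1E. In monogyne SB/SB ovaries it was 49.3 CPM in 235A, 50.2 in 233A, 54.8 in 222A, 58.0 in 209A, 59.1 in 207A, 62.1 in 232A, 75.6 in 240A and 88.4 in 239A. The polygyne SB/SB ovaries fell into 4 near the monogyne level and 3 far above it, with no value between 62.8 and 302 CPM. Of the 23 polygyne ovaries, 10 were above the highest monogyne ovary, 3 were below the lowest and 10 lay within the monogyne range, so every polygyne group overlapped the monogyne group.

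**Figure D1:**
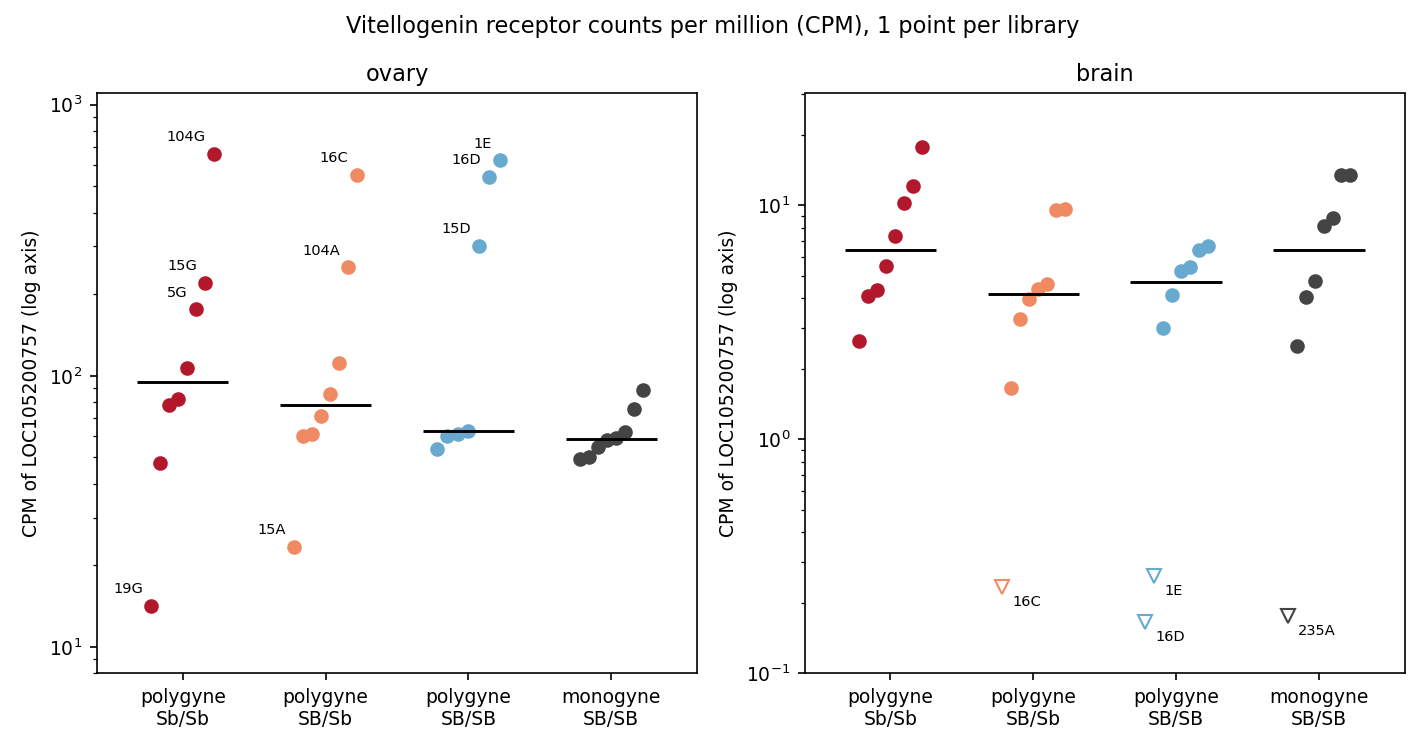
Vitellogenin receptor level in CPM (log axis) in each ovary (left) and each brain (right), 1 point per library, with groups on the horizontal axis and a black line at each group's median. Open triangles mark brains with 0 counts, drawn at the level that 3 counts would give; polygyne ovaries reach from 14.2 to 660 CPM while monogyne ovaries keep between 49.3 and 88.4 CPM.

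The highest ovary was 46.6-fold above the lowest in polygyne Sb/Sb, 23.6-fold in SB/Sb, 11.6-fold in polygyne SB/SB and 1.79-fold in monogyne SB/SB. On the log2(CPM + 1) scale the SD was 1.61 in polygyne Sb/Sb, 1.38 in SB/Sb and 1.62 in polygyne SB/SB, against 0.29 in monogyne SB/SB. Of 10797 genes tested in the ovary, 1.27% had a larger SD than the receptor among Sb/Sb ovaries, 1.80% among SB/Sb and 1.03% among polygyne SB/SB, but 34.8% among monogyne SB/SB. Polygyne ovaries were more variable in most genes, and the median gene's SD relative to monogyne was 2.03, 1.88 and 1.52 in the same order of groups. For the receptor this ratio was 5.63, 4.83 and 5.67, and 5.66%, 5.20% and 3.42% of the tested genes had a larger one.

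The mean absolute deviation from the group median was 1.15 log2 units in Sb/Sb, 0.96 in SB/Sb and 1.28 in polygyne SB/SB ovaries, against 0.20 in monogyne ovaries. None of these differences passed a two-sided exact permutation test after adjustment over the 12 spread comparisons of both tissues (p = 0.0109, 0.0365 and 0.097, adjusted p = 0.131, 0.219 and 0.388). When deviations were taken from the group mean, all 3 passed (exact permutation test, adjusted p = 0.0342, 0.0342 and 0.00186), so the call depends on the centre used. The deviations of a group share the centre they are taken from, so the p-values of all these spread tests are approximate. Exact here means only that all reassignments were enumerated. The spread did not differ detectably among the polygyne groups (adjusted p = 0.905 for each pair, exact permutation test). The mean absolute deviation without 1E, 16C and 16D was 0.68 log2 units in SB/Sb and 0.51 in polygyne SB/SB ovaries, and the adjusted p against monogyne ovaries was 0.131 for Sb/Sb, 0.278 for SB/Sb and 0.64 for polygyne SB/SB (exact permutation test). The ovary level without 1E, 16C and 16D was 94.8 ± 73.9 CPM in SB/Sb (SD, n = 7) and 108 ± 108 CPM in polygyne SB/SB (SD, n = 5).

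Group means ran in a different order from group medians. The mean was 173 ± 208 CPM in polygyne Sb/Sb, 152 ± 175 in SB/Sb (SD, n = 8 each), 244 ± 250 in polygyne SB/SB (n = 7) and 62.2 ± 13.4 in monogyne SB/SB (n = 8). The medians were 94.7 CPM in Sb/Sb, 78.3 in SB/Sb, 62.8 in polygyne SB/SB and 58.5 in monogyne SB/SB. Polygyne SB/SB thus had the highest mean and the lowest median of the polygyne groups, through its 3 high ovaries. In bulk tissue a higher level in each cell cannot be told apart from a larger share of cells or oocytes that express the gene.

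The comparison of polygyne SB/SB with monogyne SB/SB ovaries asks about social form at 1 genotype. The difference was log2 1.97 ± 0.67 (SE; 95% interval 0.66 to 3.28), or 3.92-fold, and missed the threshold (edgeR quasi-likelihood test, adjusted p = 0.0842). In that comparison 1.05% of the tested genes were called at an adjusted p under 0.05. The call depended on the tool and on few animals. DESeq2 gave log2 1.96 with an adjusted p of 0.0246, and a fit of these 2 groups alone gave log2 1.98 with 0.035. Voom with quality weights gave log2 0.34, and the fit without 1E, 16C and 16D gave 0.80 (adjusted p = 1). Those animals were set apart by their brains, and the ovaries of 1E and 16D had the highest levels of polygyne SB/SB (624 and 543 CPM). Leaving them out therefore lowers that group. The adjusted p was 0.0491 without the ovary 30E and 0.04996 without 20D.

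For polygyne SB/Sb against monogyne SB/SB ovaries, genotype and social form both differ. The log2 difference was 1.29 ± 0.64 (SE, 95% interval 0.03 to 2.55), in a comparison that called 22.2% of genes. Its unadjusted p was 0.0541 (edgeR quasi-likelihood test, adjusted p = 0.136). The interval uses the normal quantile and is narrower than that test allows, so its leaving out 0 is not a call. With these groups alone the adjusted p was 0.0475, and without 1E, 16C and 16D the log2 difference was 0.61. Genotypes within the polygyne form showed no difference past the threshold. SB/Sb against SB/SB gave log2 -0.68 ± 0.65 (95% interval -1.96 to 0.60, adjusted p = 0.741, 1.66% of genes called), or -0.18 without those 3 animals. Sb/Sb against SB/Sb gave 0.19 ± 0.63 (interval -1.05 to 1.43, adjusted p = 0.962, 0.139% called), and it was 0.86 without 1E, 16C and 16D and turned to -0.55 without the Sb/Sb ovary 104G. The difference of Sb/Sb against SB/SB was -0.49 ± 0.65 (interval -1.77 to 0.79, adjusted p = 0.667, 14.1% called), and without 1E, 16C and 16D it turned to 0.67. Each of these intervals reaches a difference of more than 2-fold in at least 1 direction.

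Permutation tests of single-gene levels gave the same side of the threshold. The smallest p among the 5 ovary comparisons was 0.0612, for polygyne SB/SB against monogyne SB/SB (two-sided exact permutation test of mean log2(CPM + 1), adjusted p = 0.34 over 10 comparisons of both tissues). The other 4 had p of 0.227 to 0.924. Leaving out 1E, 16C and 16D, the 5 had p of 0.33 to 0.889, with an adjusted p of 0.975 each (exact permutation test).

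**Figure D2:**
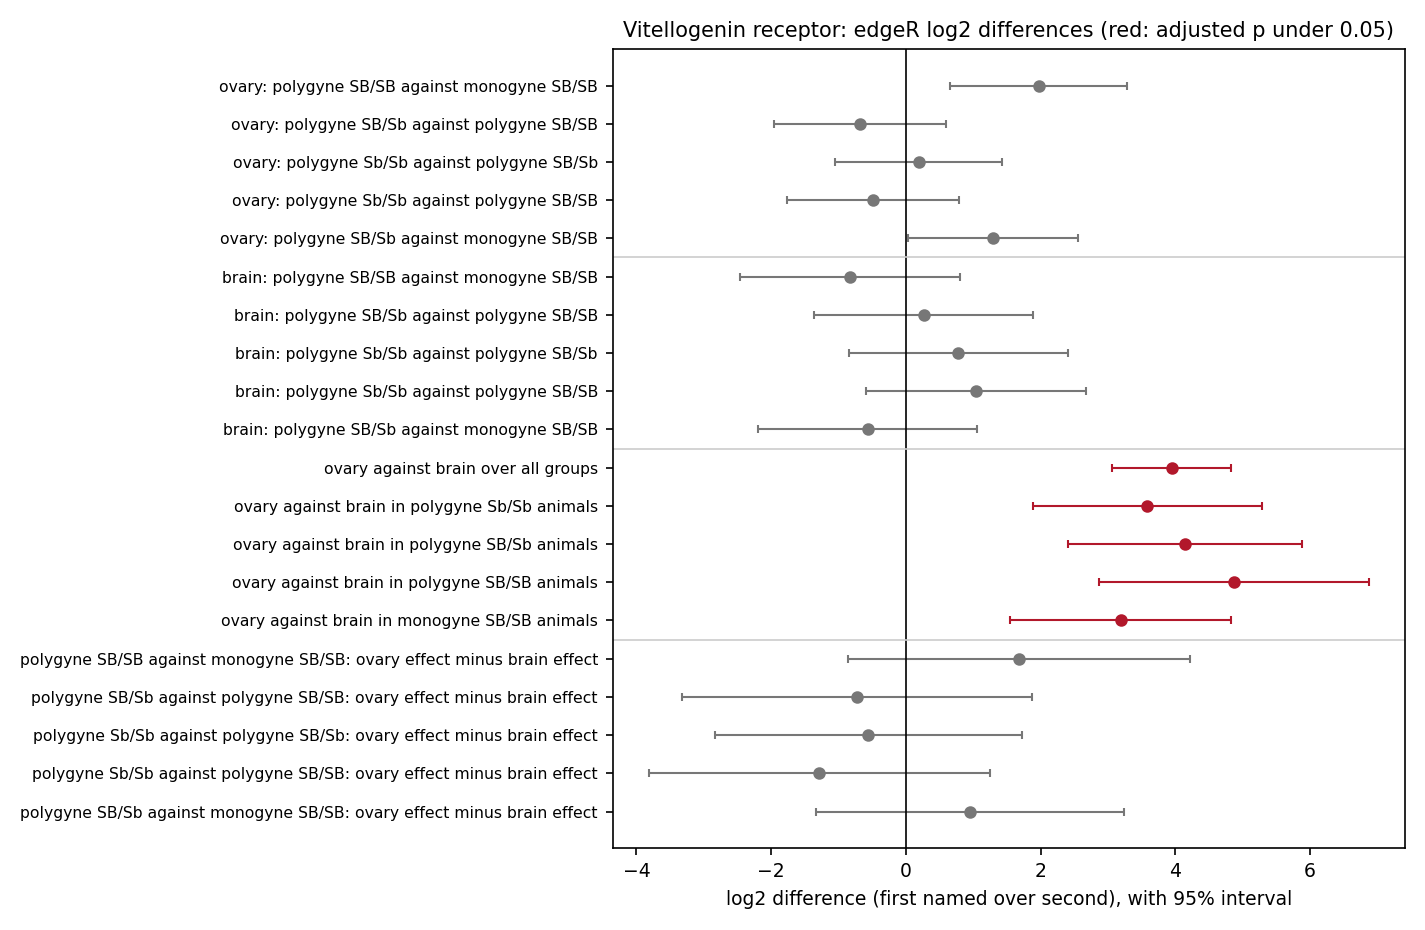
edgeR log2 differences of the vitellogenin receptor (horizontal axis, first named group or tissue over the second, bars are 95% intervals) for 20 comparisons. Red points passed an adjusted p under 0.05; they are the 5 comparisons of ovary against brain, from log2 3.19 to 4.87, while the 10 group comparisons and the 5 differences of effect between tissues are grey.

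Brains held little of the receptor in every group. The level ran from 2.63 to 17.7 CPM in polygyne Sb/Sb brains (median 6.42), from 0 to 9.64 in SB/Sb (median 4.17), from 0 to 6.68 in polygyne SB/SB (median 4.69) and from 0 to 13.4 in monogyne SB/SB (median 6.45). The groups overlapped throughout. Their means were 7.98 ± 5.06 CPM in Sb/Sb, 4.64 ± 3.43 in SB/Sb, 3.87 ± 2.66 in polygyne SB/SB and 6.89 ± 4.92 in monogyne SB/SB (SD, n = 8 each). The mean without 1E, 16C and 16D was 5.30 ± 3.10 CPM in SB/Sb (SD, n = 7) and 5.16 ± 1.39 in polygyne SB/SB (SD, n = 6). The highest brain belonged to 104G, whose ovary was also the highest.

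Among the 32 brains, 4 had no count of the receptor. They were 16C (SB/Sb), 16D and 1E (polygyne SB/SB) and 235A (monogyne SB/SB), at totals of 9.46 to 18.1 M counts, where 0 counts allow up to 0.166 to 0.259 CPM. The other 28 brains had 26 to 366 counts. The ovaries of 1E, 16C and 16D ranked 2, 3 and 4 of 31 from the highest, and the ovary of 235A ranked 28. Of the genes tested in the brain, 9.16% were at 0 in 16C, 15.0% in 16D, 4.66% in 1E and 3.68% in 235A, with a median of 3.84% over the brains. The first 3 of these are the brains that stood apart on the leading component, and the part of that in their 0 counts was not tested.

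None of the 5 brain comparisons reached the threshold (edgeR). Polygyne SB/SB against monogyne SB/SB gave log2 -0.83 ± 0.83 (SE; 95% interval -2.46 to 0.80, adjusted p = 0.597, 0.00934% of genes called). SB/Sb against SB/SB gave 0.26 ± 0.83 (interval -1.36 to 1.88, adjusted p = 0.999, 0.252% called). The Sb/Sb group had the highest mean, and Sb/Sb against SB/Sb gave 0.78 ± 0.83 (interval -0.84 to 2.41, adjusted p = 0.777, 0.159% called). The difference of Sb/Sb against SB/SB was 1.04 ± 0.83 (interval -0.59 to 2.68, adjusted p = 0.547, 0.962% called), or 0.63 without 1E, 16C and 16D. Against monogyne SB/SB, SB/Sb gave -0.57 ± 0.83 (interval -2.19 to 1.05, adjusted p = 0.798, 0.215% called). The other 4 brain differences were -0.42, 0.04, 0.59 and -0.38 without those 3 animals, in the order given. Exact permutation tests gave p of 0.0681 to 0.683 in the brain, all with adjusted p of 0.34 or more, and p of 0.249 to 0.975 without those 3 animals.

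The brain level moved with the depth of the brain library (Pearson r = 0.602, Spearman rho = 0.558, permutation p = 0.00034 and 0.00126, adjusted p = 0.00136 and 0.00504 over 8 relations, 32 brains). Without the 2 brains farthest from the median total, r was 0.398, and without 1E, 16C and 16D it was 0.427. Within groups r was 0.623 in Sb/Sb, 0.93 in SB/Sb, 0.456 in polygyne SB/SB and 0.421 in monogyne SB/SB. Its part in the brain levels was not tested. The ovary level showed no such relation with the total count (r = 0.00770, adjusted p = 0.968). It did move with the TMM scaling factor of the ovary library, which rescales each library by the trimmed mean of its genes' differences from a common library (r = 0.658, rho = 0.673, permutation p = 3e-05 and 5e-05, adjusted p = 0.00024 and 0.0004). Without 1E, 16C and 16D this r was 0.678. Within groups that r was 0.773, 0.809 and 0.77 in polygyne Sb/Sb, SB/Sb and SB/SB and 0.0885 in monogyne SB/SB. The TMM factor of the brain library was related to the brain level by rank alone (r = -0.4, rho = -0.436, permutation p = 0.0255 and 0.0137, adjusted p = 0.0679 and 0.0366). The number of genes detected was not related to the level past the threshold in either tissue.

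The receptor was higher in the ovary than in the brain in every one of the 31 animals with both libraries. Over all groups the ovary exceeded the brain by log2 3.94 ± 0.45 (SE), or 15.4-fold (edgeR with the animal as a block, adjusted p = 1.71e-09) and by 3.51 without 1E, 16C and 16D, and 82% of 11793 genes differed between the tissues in one direction or the other. Brains and ovaries were extracted with different kits, so tissue and kit cannot be told apart. In polygyne Sb/Sb animals the log2 difference was 3.58 ± 0.87 (adjusted p = 0.000611, 64.6% of genes called). In SB/Sb animals it was 4.14 ± 0.88 (adjusted p = 0.000155, 63.2% called). In polygyne SB/SB animals it was 4.87 ± 1.02 (adjusted p = 0.000118, 64% called). In monogyne SB/SB animals it was 3.19 ± 0.84 (adjusted p = 0.0013, 67.3% called). Without 1E, 16C and 16D the 4 groups gave log2 3.57, 3.67, 3.57 and 3.22 in the same order, and all 4 passed (highest adjusted p = 3.55e-05).

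Animal by animal, with both tissues scaled together, the ovary was 2.35-fold to 33.2-fold above the brain in polygyne Sb/Sb animals. The fold was 4.80 to 41.5 in 7 SB/Sb animals, 6.50 to 41.6 in 5 polygyne SB/SB animals and 3.22 to 14.3 in 7 monogyne SB/SB animals. The smallest fold, in 19G, came from the lowest ovary. For the 4 animals with no counts in the brain the ratio is a lower bound against 3 counts in that brain library. The ovary was at least 1776-fold higher in 16C, 2478-fold in 16D, 1747-fold in 1E and 215-fold in 235A. With these 4 counted as the highest of their groups, the median fold was 14.0 in Sb/Sb, 15.8 in SB/Sb, 15.5 in polygyne SB/SB and 8.74 in monogyne SB/SB animals. Over the animals with a count in both tissues it was 14.0, 12.001, 9.07 and 8.25 in the same order.

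**Figure D3:**
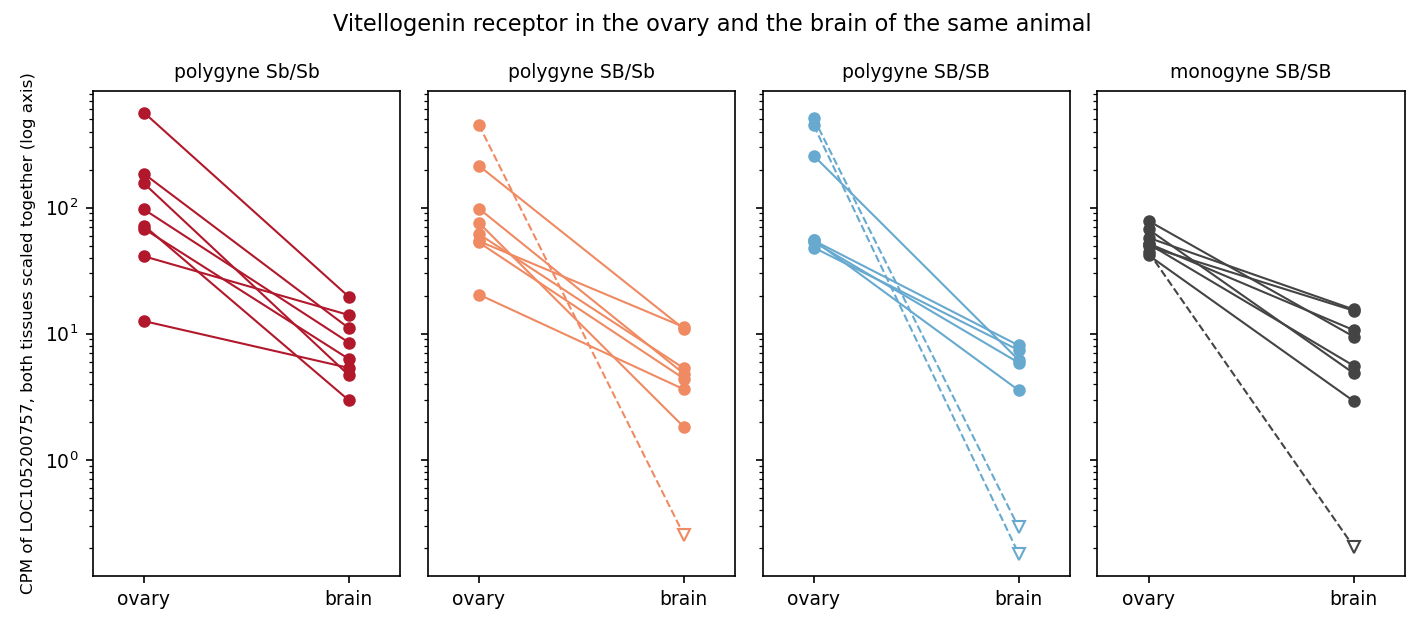
Vitellogenin receptor level in CPM (log axis, both tissues scaled together) in the ovary and the brain of each animal, joined by a line, in 4 panels by group. Dashed lines lead to open triangles, which mark brains with 0 counts at the level 3 counts would give; every line falls towards the brain, and the folds with a count in both tissues run from 2.35 to 41.6.

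Whether a group difference was larger in the ovary than in the brain was tested in the same fit. Polygyne SB/SB against monogyne SB/SB differed between ovary and brain by log2 1.68 ± 1.30 (SE; 95% interval -0.86 to 4.22, adjusted p = 0.865). In that test edgeR called 0% of genes, 0 of 11793, with 679 at an unadjusted p under 0.05. For SB/Sb against SB/SB the difference of effects was -0.73 ± 1.32 (adjusted p = 0.963, 0.0254% called), and without 1E, 16C and 16D it was 0.10. For Sb/Sb against SB/Sb it was -0.56 ± 1.16 (adjusted p = 0.888). There too edgeR called 0 genes, 0%, with 1129 at an unadjusted p under 0.05. For Sb/Sb against SB/SB it was -1.28 ± 1.29 (adjusted p = 0.573, 6.76% called), and 0.01 without those 3 animals. For SB/Sb against monogyne SB/SB it was 0.95 ± 1.17 (adjusted p = 0.848, 0.0509% called). The other 3 differences of effect were 0.34, -0.10 and 0.45 without those 3 animals, in the order given. Across the 31 animals, the ovary and the brain level centred on the group were not related past the threshold (r = -0.229, rho = -0.0938, permutation p = 0.222 and 0.62, adjusted p = 0.296 and 0.748; r = -0.141 without the 2 animals farthest from the median). Without 1E, 16C and 16D the sign of r turned, to 0.193.

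Each polygyne animal carries a number in its title, and 9 numbers occur among the 24 polygyne animals. Of these, 8 recur, and number 1 belongs to 1E alone. What the number stands for is not given in the labels, and the monogyne animals have numbers of their own, so what goes with the numbers and what goes with social form cannot be told apart. The ovaries of number 107 stayed together, at 47.6 CPM in Sb/Sb, 60.0 in SB/Sb and 53.8 in SB/SB. Number 20 ran from 60.8 to 107 CPM and number 30 from 60.0 to 111. Others were split. The ovaries of number 15 differed 12.9-fold, at 220 CPM in Sb/Sb, 23.4 in SB/Sb and 302 in SB/SB. Those of number 16 differed 6.72-fold, at 82.1 CPM in Sb/Sb, 552 in SB/Sb and 543 in SB/SB. Those of number 19 differed 5.00-fold, at 14.2 CPM in Sb/Sb, 70.8 in SB/Sb and 62.8 in SB/SB.

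The 7 ovaries over 200 CPM carried 4 numbers, which are 104, 1, 16 and 15. Of the 6 numbers with an ovary of each genotype, SB/Sb was the highest in 4, Sb/Sb in 1 and SB/SB in 1. Sb/Sb was the lowest in 3, SB/Sb in 1 and SB/SB in 2. No genotype therefore held the same place across the numbers.

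**Figure D4:**
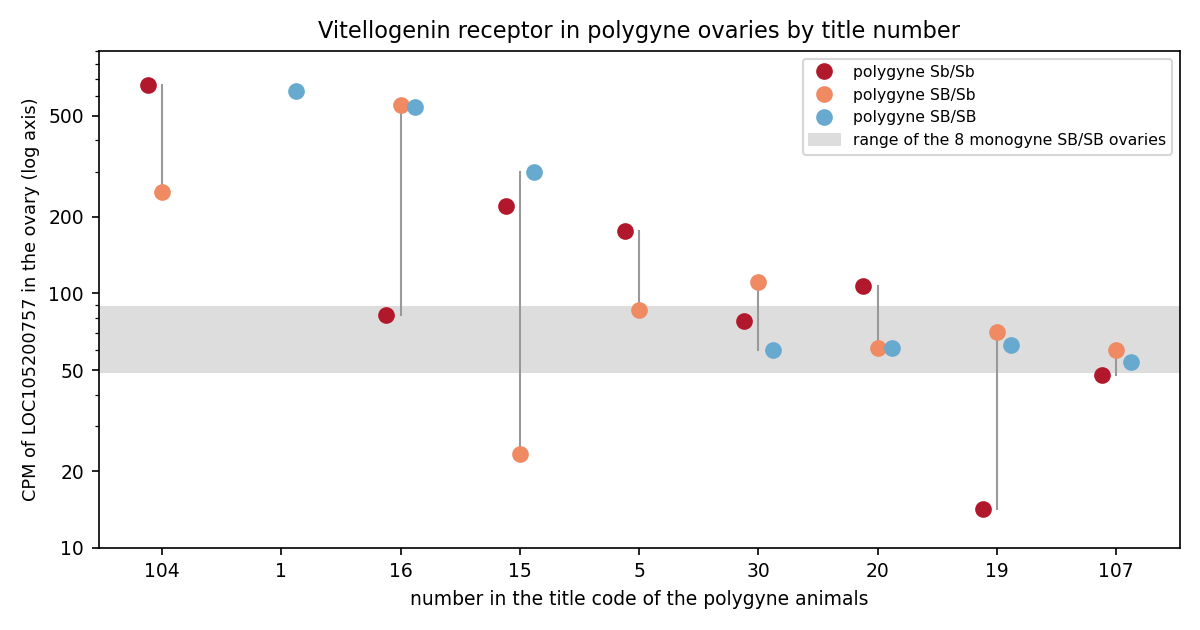
Vitellogenin receptor level in polygyne ovaries in CPM (log axis), by the number in the animal's title, with 1 point per ovary coloured by genotype and a line over the range of each number. The grey band is the range of the 8 monogyne SB/SB ovaries, 49.3 to 88.4 CPM; numbers 104, 1, 16 and 15 hold the 7 ovaries over 200 CPM and number 107 spans 47.6 to 60.0 CPM.

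The level of the receptor followed that of a large part of the ovary's genes from animal to animal. Over 31 ovaries and 10796 other genes, 26.6% were positively and 24.6% negatively related to it (Pearson r of log2(CPM + 1), permutation test with 100000 permutations, adjusted p under 0.05). The leading component of the other genes held 39.2% of the variance between ovaries, and its absolute r with the receptor was 0.783. Of the 10796 genes, 276 had an r of 0.9 or more and 46 an r of -0.9 or less. These were 74 and 17 without 1E, 16C and 16D. The libraries behind each r are the same, including their depth and scaling, and genes are not independent replicates.

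The 6 genes most like the receptor across ovaries had r of 0.972 to 0.985 (rho 0.859 to 0.925, adjusted p = 5.27e-05 for each, which is the smallest that the permutations give). Their r was 0.953 to 0.976 without 1E, 16C and 16D. None has a gene name in the files or the gene table. LOC105193044 on chromosome 3 came first, with r = 0.985, and with r = 0.980 without the 2 ovaries farthest from the median. It ranged from 8.41 to 308 CPM in polygyne Sb/Sb ovaries, 15.8 to 279 in SB/Sb and 31.6 to 292 in polygyne SB/SB, against 24.4 to 40.6 in monogyne SB/SB. Within groups its r was 0.991, 0.976 and 0.996 in the polygyne groups and 0.704 in monogyne SB/SB. The others were LOC105200759 (r = 0.982), LOC105195094 (0.974), LOC105192965 (0.974), LOC105203940 (0.972) and LOC105204560 (0.972).

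At the other end, LOC105198631 on chromosome 1 (r = -0.944, rho = -0.831), LOC105199280 on chromosome 11 (r = -0.944, rho = -0.800) and LOC105197236 on chromosome 3 (r = -0.943, rho = -0.898) had the lowest r. LOC105198631 averaged 519 ± 218 CPM in polygyne Sb/Sb ovaries, 505 ± 166 in SB/Sb (SD, n = 8 each) and 451 ± 134 in polygyne SB/SB (n = 7), against 558 ± 32.8 in monogyne SB/SB (n = 8). Its r within the monogyne group was -0.0567, against -0.933 in Sb/Sb, -0.985 in SB/Sb and -0.954 in polygyne SB/SB. Within that group r was -0.499 for LOC105199280 and -0.117 for LOC105197236. Over all groups the r of the 3 genes was -0.919 to -0.916 without 1E, 16C and 16D.

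**Figure D5:**
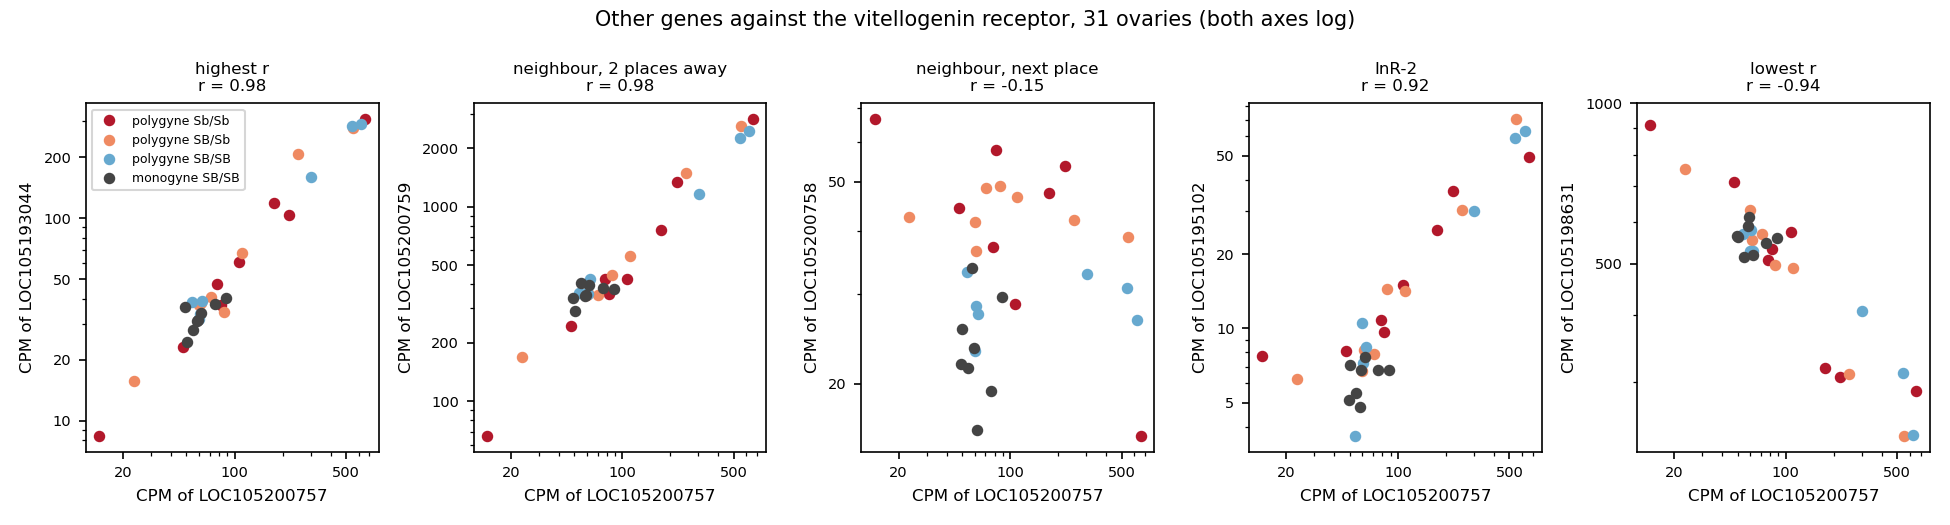
CPM of 5 other genes (vertical axes, log) against the vitellogenin receptor (horizontal axes, log) in 31 ovaries, 1 point per ovary coloured by group. LOC105193044 and LOC105200759 climb with the receptor (r = 0.985 and 0.982), as does the insulin receptor gene LOC105195102 (r = 0.915), and LOC105198631 falls (r = -0.944). LOC105200758, which lies between the receptor and LOC105200759, does neither over all 31 ovaries (r = -0.145), but its r within polygyne Sb/Sb is -0.703.

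LOC105200759 is also a neighbour of the receptor gene, 2 places away on chromosome 2 in the order of the gene table. It reached 66.4 to 2814 CPM in polygyne Sb/Sb ovaries (median 425), 170 to 2607 in SB/Sb (median 403) and 357 to 2459 in polygyne SB/SB (median 427), against 290 to 405 in monogyne SB/SB (median 364). Its highest and lowest ovaries were those of 104G and 19G, as for the receptor. The gene between them, LOC105200758, ran from 15.8 to 66.4 CPM over all ovaries with r = -0.145 (rho = 0.0391, permutation p = 0.437, adjusted p = 0.534). Its r was -0.703 within Sb/Sb, -0.192 within SB/Sb, 0.204 within polygyne SB/SB and 0.0840 within monogyne SB/SB. On the other side, the next gene LOC105200755 had r = -0.633 (rho = -0.632, permutation p = 0.00016, adjusted p = 0.000578). LOC105200754, the next gene of the files and 3 places away in the table, had r = -0.178 (rho = -0.244, permutation p = 0.339, adjusted p = 0.438). Over 32 brains LOC105200759 went the other way, with r = -0.629 (rho = -0.501, permutation p = 0.00011, adjusted p = 0.00103), and r was -0.338 without 1E, 16C and 16D. This did not hold in every group. The brain r was 0.524 within Sb/Sb, -0.841 within SB/Sb, -0.720 within polygyne SB/SB and -0.420 within monogyne SB/SB.

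Of the genes that carry a synonym, InR-2 (LOC105195102), an insulin receptor gene, was the most like the vitellogenin receptor. Insulin receptors pass on nutritional signals, and in insects insulin signalling takes part in egg growth. Across ovaries InR-2 had r = 0.915 and rho = 0.833 (permutation test, adjusted p = 5.27e-05), and r = 0.853 without 1E, 16C and 16D. It ranged from 7.75 to 49.4 CPM in polygyne Sb/Sb ovaries, 6.24 to 70.4 in SB/Sb and 3.67 to 62.8 in polygyne SB/SB, against 4.81 to 7.67 in monogyne SB/SB. In brains its r with the vitellogenin receptor was -0.649 (rho = -0.496, permutation test, adjusted p = 0.000938). Within groups that brain r was -0.0866 in Sb/Sb, -0.899 in SB/Sb, -0.887 in polygyne SB/SB and -0.253 in monogyne SB/SB. Without 1E, 16C and 16D the brain r of InR-2 was -0.329. Those 3 brains held its highest brain levels, 22.2 CPM in 1E, 22.7 in 16C and 16.6 in 16D. The other insulin receptor gene, LOC105207962 (InR-1), had r = 0.707 and rho = 0.534 across ovaries (permutation test, adjusted p = 0.000133), in ovaries where it did not exceed 10.03 CPM, and r = 0.595 without 1E, 16C and 16D.

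The other genes with a synonym stayed further off. The detoxification genes LOC105195645 (CYP6A14, a cytochrome P450) and LOC105197561 (GSTS1, a glutathione S-transferase) had ovary r of -0.391 and -0.387 (permutation test, adjusted p = 0.0572 and 0.0636). LOC105193893 (CYP4AB2, a cytochrome P450) had r = -0.439 (rho = -0.221, permutation test, adjusted p = 0.0348), and -0.532 without 1E, 16C and 16D. The odorant-binding protein genes LOC105195107 and LOC105203994, whose products carry odorants in insect antennae, had r of -0.118 and 0.164 (permutation test, adjusted p = 0.622 and 0.477).

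Across brains the likeness was weaker. Over 32 brains and 10703 genes, 23.4% were positively and 20.7% negatively related to the receptor (permutation test, adjusted p under 0.05), and 0 reached an r of 0.9. The 4 most like it were LOC105199966 (r = 0.814), LOC105204233 (r = 0.795), LOC105199193 (r = 0.790) and LOC105200721 (r = 0.789), with rho of 0.618 to 0.766 and an adjusted p of 0.000703 each. Their r was 0.549 to 0.604 without 1E, 16C and 16D. In the ovary all 4 had a negative r, from -0.303 for LOC105199193 to -0.879 for LOC105199966. That of LOC105199193 did not pass the threshold (permutation test, adjusted p = 0.154), and it was -0.0504 without the 2 ovaries farthest from the median. The receptor's brain level rested on few counts and moved with depth, as described above. It also moved with the leading component of the other brain genes, on which 1E, 16C and 16D stood apart (absolute r = 0.754).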

How the data were processed

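RNA was sequenced from 64 libraries, 1 brain or 1 ovary each, prepared by Smart-seq2 per the labels' protocols, without molecular identifiers. The deposited files hold whole-number counts per gene, with no normalization by the authors; per the submitters' processing notes, reads were handled with Trimmomatic 0.32, STAR 2.5.3a and featureCounts. The genome build, annotation and strand setting are not given in the sources used here. Counts were tested with edgeR 4.0.16 (R 4.3.3): TMM, filterByExpr at a minimum count of 10, quasi-likelihood F-tests on the whole table and Benjamini-Hochberg adjustment, with a call under 0.05. Each tissue was fitted by group (31 ovaries, 32 brains); tissues were compared with the animal as a block. Standard errors are the log2 value over the root of F, and 95% intervals use the normal quantile. These intervals are narrower than the F-test would give, so one can leave out 0 at an unadjusted p over 0.05. Permutation tests used log2(CPM + 1). DESeq2 1.42.0 and limma 3.58.1 (voom) were alternatives. The edgeR fits were tested on simulated counts, for polygyne SB/SB against monogyne SB/SB ovaries and for ovary against brain, with outcomes not given here. The simulation gave each gene the same dispersion in all groups. The receptor's SD was 1.62 in polygyne SB/SB and 0.29 in monogyne SB/SB ovaries, so the simulation does not cover its unequal spread. The DESeq2 and voom fits were not tested in this way.

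Brain and ovary libraries were matched by the animal's code in their titles. Nothing in the labels shows whether animals are related, so p-values treat them as separate. The gene, the comparisons and the gene lists were chosen with earlier results of these data known. Genes named beside the receptor are the 6 with the highest and the 3 with the lowest r across ovaries, the 4 highest across brains, the 2 genes of the files nearest on each side in the gene table, and those with a synonym. LOC105199703, the remaining gene with a synonym, passed the filter in neither tissue. A list for yolk uptake and egg formation matched 0 genes by symbol or synonym. No gene of the table overlaps the receptor gene. No 2 libraries held identical counts. The alternatives without 1E, 16C and 16D, and the fit of polygyne libraries alone without a block, were chosen after seeing the data. Floors are 3 counts in a library; they and the depth behind each value cover counting error only.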

Additional observations from a re-analysis of the deposited data

How the results depend on the processing

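Over all results and alternatives, 354 values kept their direction and their side of the threshold, 8 passed it where the reported value did not, and 16 changed sign. Another 2 moved, which are the lists of genes most like the receptor in each tissue. For polygyne SB/SB against monogyne SB/SB ovaries, DESeq2 gave log2 1.96 and the 2 groups alone 1.98, both past the threshold, and leaving out 1 ovary at a time gave 1.54 to 2.14, past it without 20D (2.13) or 30E (2.13). For SB/Sb against monogyne SB/SB ovaries the groups alone gave 1.30, past the threshold. Sb/Sb against SB/Sb ovaries ranged from -0.55 (without 104G) to 0.86 with 1 ovary left out. Sb/Sb against SB/SB ovaries turned to 0.21 with voom and 0.67 without 1E, 16C and 16D. In the brain, voom gave 0.28 for polygyne SB/SB and 0.29 for SB/Sb against monogyne SB/SB. Without 1E, 16C and 16D the ovary effect minus the brain effect turned to 0.10 for SB/Sb against SB/SB and 0.0058 for Sb/Sb against SB/SB. Without them the permuted log2(CPM + 1) differences turned to 0.32 for Sb/Sb against SB/SB ovaries and -0.082 for SB/Sb against SB/SB brains. The spread differences turned to 0.64 for Sb/Sb and 0.17 for SB/Sb against SB/SB ovaries; in brains, to 0.39 and 0.24 for the same pairs and 0.15 for Sb/Sb against SB/Sb.

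With deviations from the group mean, the ovary spread exceeded that of monogyne SB/SB by 0.93 in Sb/Sb, 0.79 in SB/Sb and 1.24 in polygyne SB/SB. Each was past the threshold by p-values that are approximate. The brain spread of polygyne SB/SB against monogyne SB/SB turned to 0.24 with log2(CPM + 0.1) and 0.029 with the group mean. By Spearman rho, the lowest of the genes named as most like the receptor fell to 0.859 in ovaries and 0.618 in brains. Only 1 of the 6 genes named in ovaries and 1 of the 4 in brains stayed among the highest by rho. With values centred on the group, 5 of the 6 and 1 of the 4 stayed among the highest by r. The cause of these changes was not tested. Ovary against brain passed under every alternative run, at log2 3.51 to 4.35 over all groups; without the replicate block (animal left out of the design) it was 4.23.

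Samples of the same title number had correlated deviations over 0.1 in 14 of 20 ovary pairs and 11 of 22 brain pairs. The median correlation was 0.355 in the ovary (range -0.352 to 0.685) and 0.0994 in the brain. Pairs with different numbers were not set beside these, so whether a shared number goes with likeness was not tested. P-values from tests without the number as a block treat animals that share a number as separate. The labels do not say what the number stands for, so it was not taken as pairing. With the number as a replicate block among polygyne libraries, no call changed: SB/Sb against SB/SB gave log2 -0.33 in the ovary and 0.13 in the brain, Sb/Sb against SB/Sb gave 0.05 and 1.29, and the 2 homozygotes gave -0.28 and 1.42. Depth limits the brain values, where 26 to 366 counts, or 0, stand behind each level.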

Other observations

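The genes that moved with the vitellogenin receptor in the ovary tended to go against it in the brain. Of the 276 genes with an r of 0.9 or more across ovaries, 273 were tested in the brain, and 265 had a negative r with the receptor there (median r = -0.588 over 32 brains). Of the 46 genes with an r of -0.9 or less across ovaries, 2 had a negative r in the brain (median r = 0.573). Over all 9926 genes tested in both tissues, 4563 had a negative brain r, with a median of 0.0652. The genes were chosen on their ovary values, and the brains come from the same animals. Genes chosen for their likeness to 1 gene are alike among themselves, so these counts are not of independent genes. Without 1E, 16C and 16D, 251 of the 273 and 11 of the 46 had a negative brain r, with medians of -0.313 and 0.242, and the median over all genes was 0.0055. Brain depth (r = 0.602) and the leading component of the brain (absolute r = 0.754) move with the receptor's brain level. Their part in this pattern was not tested.

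The animals with the highest ovary levels came with brains that differed. The brain of 104G, whose ovary ranked first at 660 CPM, had the highest brain level at 17.7 CPM. The brains of 1E, 16C and 16D, whose ovaries followed at 543 to 624 CPM, had no count of the receptor.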
